A study of Mus musculus with 338 samples.

Results

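Granins and the enzymes that process prohormones travel together in the dense-core secretory granules of endocrine cells, and 10 of their genes were followed here in mouse pancreatic islets. These were the granins Chga, Chgb, Scg2, Scg3 and Vgf, the convertases Pcsk1 and Pcsk2, the carboxypeptidase Cpe, and the convertase-binding proteins encoded by Pcsk1n and Scg5. They were taken by symbol from the deposited table of read counts, 10 of its 21382 genes, and all 10 passed the filter on low counts. Islet RNA had been sequenced in 338 libraries, 1 per mouse, from 6 inbred strains: 129S2/SvPas, A/J, AKR/J, BALB/cJ, C57Bl/6J and DBA/2J. Mice of each strain were given either regular chow (RC) or a diet rich in fat and sugar (HFHS), with islets taken at days 2, 10, 30 and 90, which gave 48 groups of 4 to 11 libraries. The strain, the diet and the day were the only differences between groups that the labels gave. Each library started from 200 ng of total RNA from at least 150 islets. The ages and the sex of the mice are not given in the sources used here.

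Granins are acidic proteins that bind calcium, aggregate in the trans-Golgi network and help to form dense-core granules, and several of them are themselves cut into signalling peptides. In the granule the convertases encoded by Pcsk1 and Pcsk2 cut prohormones such as proinsulin at paired basic residues, and carboxypeptidase E removes the basic residues left at the new ends. The product of Scg5 is a chaperone that the Pcsk2 convertase needs in order to become active, and proSAAS, the product of Pcsk1n, can inhibit the Pcsk1 convertase.

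Promoter sequences were looked up in RefSeq (GRCm38.p6), which held an entry for 8 of the 10 genes but not for Vgf or Cpe. The palindrome TGACGTCA, the full cyclic AMP response element, stood in 3 of these 8 promoters, against 508 of all 32851 promoters in the table (1.55%, 250 bases before the start, both strands). The shorter TGACG, which the palindrome contains, was in 17.8% of all promoters on either strand. The 120 bases just before the start are shown for the 3 genes with the palindrome (Chgb, Scg2 and Pcsk1) and for Chga, a granin whose promoter holds only the shorter form. Capitals mark TGACGTCA or TGACG, and each line reads 5′ to 3′ on the gene's strand.
Chgb: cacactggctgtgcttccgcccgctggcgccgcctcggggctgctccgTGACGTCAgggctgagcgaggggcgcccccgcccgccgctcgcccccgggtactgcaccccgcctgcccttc
Scg2: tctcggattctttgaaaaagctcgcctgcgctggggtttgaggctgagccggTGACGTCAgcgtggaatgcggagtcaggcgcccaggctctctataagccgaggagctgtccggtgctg
Pcsk1: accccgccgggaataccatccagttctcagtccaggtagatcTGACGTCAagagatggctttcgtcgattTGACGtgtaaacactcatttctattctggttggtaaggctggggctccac
Chga: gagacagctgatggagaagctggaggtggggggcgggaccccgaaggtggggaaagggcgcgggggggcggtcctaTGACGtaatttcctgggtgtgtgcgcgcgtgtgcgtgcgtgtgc

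The Chgb window is chr2:132781522-132781641 on the plus strand, the Scg2 window chr1:79440027-79440146 on the minus strand, the Pcsk1 window chr13:75089737-75089856 on the plus strand and the Chga window chr12:102554821-102554940 on the plus strand. The palindrome began 72 bases before the start in Chgb, 68 in Scg2 and 78 in Pcsk1. A match of letters is a description of the window only, and no binding was measured in these libraries.

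Libraries held 9526926 to 50751894 reads assigned to genes (median 25989180). In 36 libraries the deviation of genes from their strain's median ran steeply with GC content, by more than 0.5 log2 units per 10 GC points, and 9 of these carried another strain's expression pattern than the one on the label. These 36, and 4 libraries left alone or in a pair in their group, were kept out of the fits, which used 298 libraries in 45 groups. The 3 groups lost were DBA/2J on RC at day 90, BALB/cJ on HFHS at day 2 and A/J on HFHS at day 10. A further 20 libraries in the fits were low in 21 GC-rich genes that are not among the 10, so calls are also given without them where they changed, a choice made after seeing the data. Dropping them also changed the scaling and the spread shared by all groups, so calls could change in groups that lost no library. In the fits Ins1 and Ins2 took 14.2 to 36.1% of assigned reads, which is the level of islet tissue. Because whole islets were sequenced, fewer cells of a type and less RNA per cell cannot be told apart. Each p-value below measures the spread between these mice, which includes that of library preparation.

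Adjusted for the length of each gene's longest transcript, Chga was the most abundant of the 10 genes and Vgf the least. Levels are in CPM, a gene's reads scaled to the library's total of assigned reads. In the 298 libraries the median CPM per kilobase of that transcript was 7358 for Chga, 2951 for Scg2, 2108 for Cpe and 1460 for Scg5. Pcsk2 followed with 862, Scg3 with 731, Chgb with 667, Pcsk1n with 531, Pcsk1 with 106.96 and Vgf with 14.4. Another choice of length would change these values and the order in the middle. Pcsk2, for example, has 4723 bases in its longest transcript and 7910 over all its annotated exons. Without the length adjustment, Chga ran from 5536 through a median of 13856 to 22297 CPM and Vgf from 9.36 through 40.8 to 226 CPM. Pcsk1n had the widest range, from 3.04 through 1164 to 2176 CPM, and the libraries at its low end are described below. In the GENCODE M21 annotation the exons of Pcsk2 share 359 bases with antisense transcripts and those of Pcsk1n a shorter stretch with Eras, so some reads of these 2 genes may belong to a neighbour.

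The genes differed widely in how much the 45 group means spread. The ratio of the highest to the lowest group mean in CPM was 12.9 for Vgf, 4.57 for Scg2, 3.02 for both Chga and Scg5, 2.62 for Chgb and 2.09 for Pcsk1. It was only 1.65 for Pcsk2, 1.55 for Scg3 and 1.40 for Cpe. Mice of 1 group varied least in Pcsk2, Cpe and Scg3, with median coefficients of variation within groups of 4.38, 4.80 and 5.09%. They varied most in Vgf (15.4%), Pcsk1n (13.2%) and Pcsk1 (11.1%). The highest group mean of Scg2, Chgb and Vgf was in the same group, AKR/J on HFHS at day 90, at 16128, 4248 and 175 CPM.

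**Figure D1:**
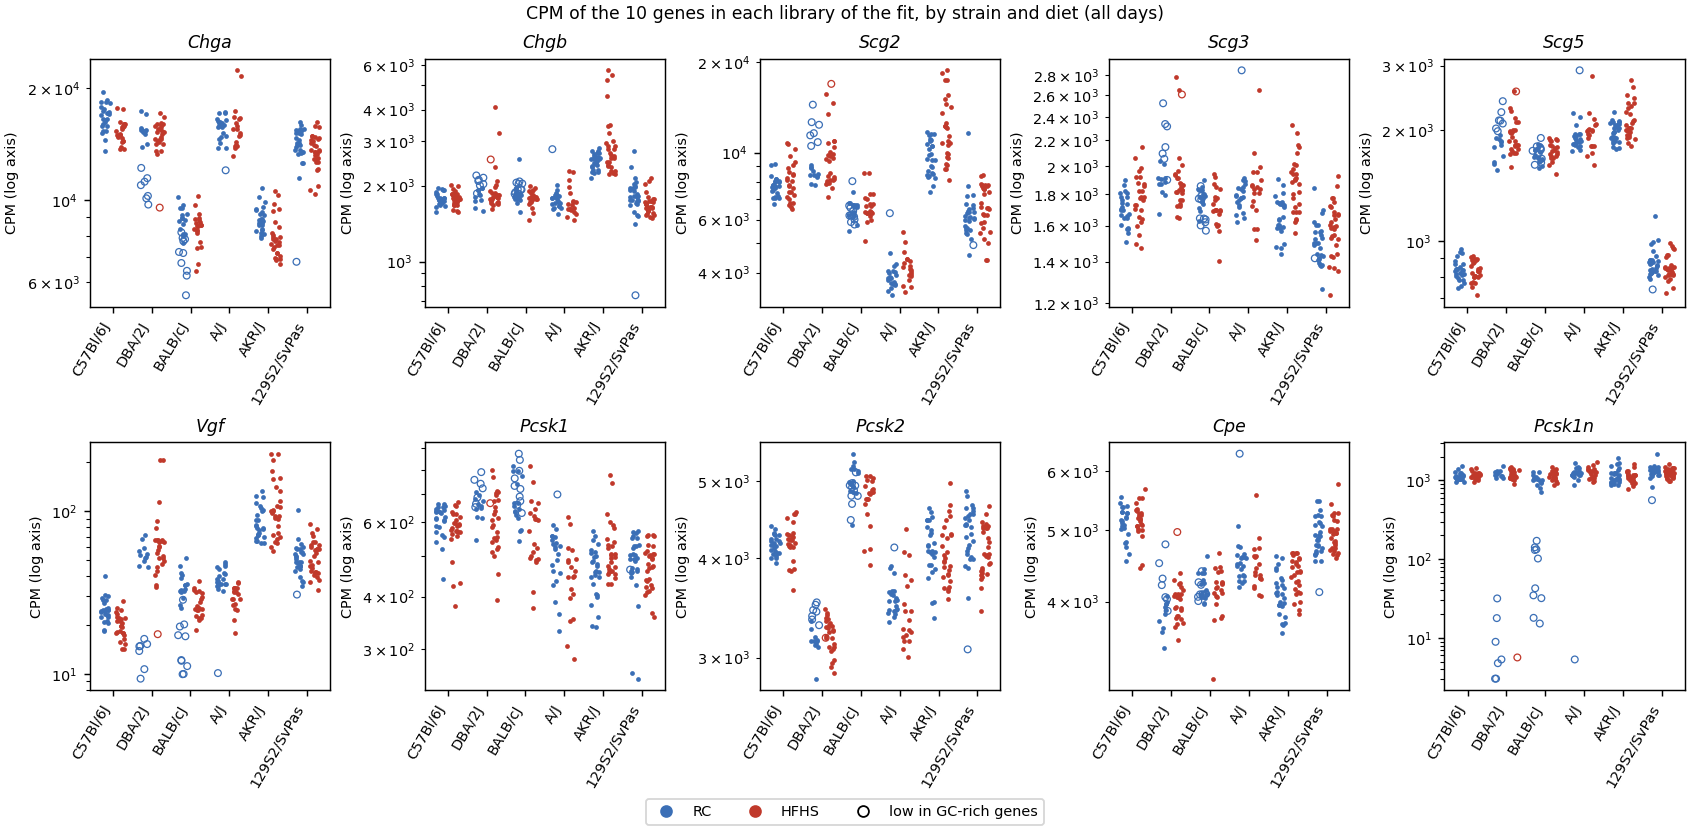
Level of each of the 10 genes in CPM (y axes, log scale) in each of the 298 libraries of the fits, all days together, by strain on the x axis and with RC and HFHS in separate colours; open circles are libraries low in GC-rich genes. Scg5 lies lowest in C57Bl/6J and 129S2/SvPas with no mouse near the other 4 strains, and the open circles hold every Pcsk1n value under 720 CPM.

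Pcsk1n was the gene most exposed to library quality. Counted over all 338 libraries, 56 in 15 groups were low in the 21 GC-rich genes, and in these Pcsk1n ran from 1.09 through a median of 5.44 to 559.8 CPM. The other 282 libraries ran from 720 through 1175 to 2347 CPM, so the 2 sets did not overlap. The longest transcript of Pcsk1n is 57.3% GC, close to that of Chga (58.4%) and below that of Vgf (64.1%). Vgf had a median of 8.76 CPM in the 56 libraries against 42.8 in the others, and Chga 6600 against 14171. The AT-richer members were higher instead, with Pcsk1 (40.6% GC) at 828 against 528 and Scg2 (46.8% GC) at 10677 against 7409. GC-rich genes outside the set were at or near the floor in the same libraries, with Mafa at 1.62 against 252 CPM and Scand1 at 0.142 against 38.3. In the fits Pcsk1n spanned a 138.1-fold range of group means, and without the low libraries the range was 1.51-fold.

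**Figure D2:**
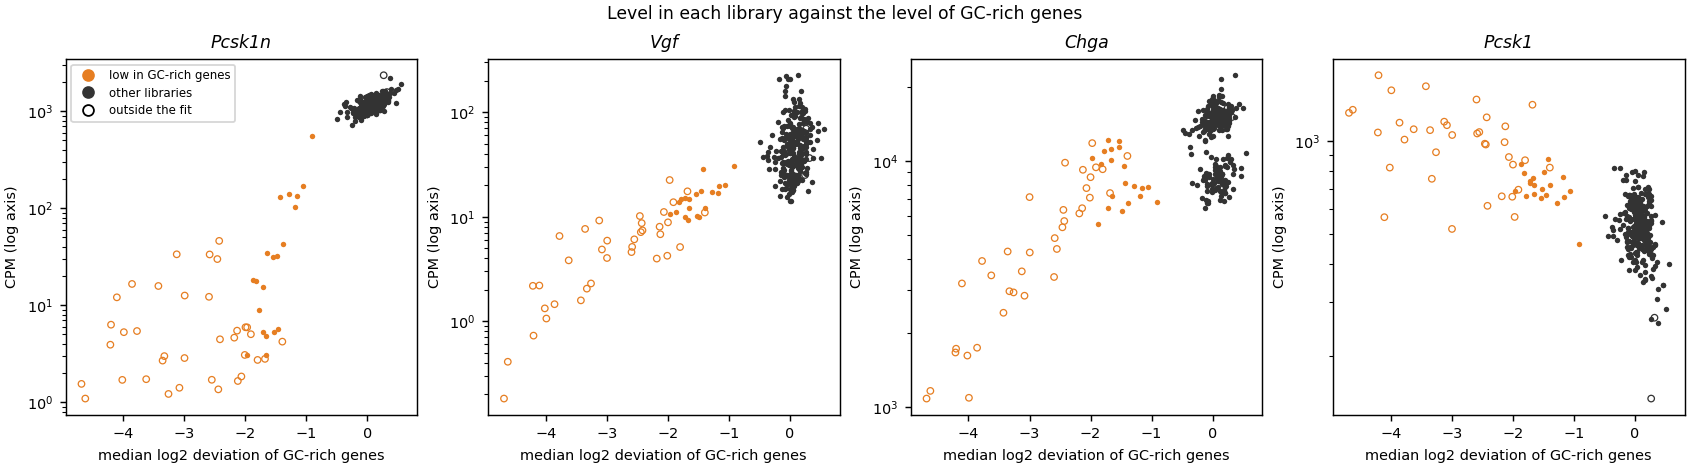
Level of Pcsk1n, Vgf, Chga and Pcsk1 in CPM (y axes, log scale) in each of the 338 libraries against the library's median log2 deviation over 21 GC-rich genes outside the set (x axis), with open circles for libraries outside the fits. The 56 libraries low in those genes are all at 559.8 CPM or less for Pcsk1n, and every other library is at 720 CPM or more.

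Several granins differed between strains on RC. Each strain was compared with the mean of the other 5 over days 2, 10 and 30, and a gene was called at an adjusted p under 0.05 and a fold of at least 1.5 by edgeR's quasi-likelihood test with Benjamini-Hochberg adjustment over 16462 genes. Of 60 tests of members, 13 were called, against 10.4% of tests over all genes. By strain, the share of all genes called was highest in AKR/J (12.3%), followed by C57Bl/6J (10.5%), BALB/cJ (10.4%), DBA/2J (9.95%), 129S2/SvPas (9.77%) and A/J (9.28%). With the low libraries left out, 8 of 60 were called beside 9.76%, none of them for Pcsk1n. No day then kept all 6 strains on RC. Each strain was therefore compared over its own days, with day 90 where it had one, against the strains present on each day. Strain differences from that fit are thus not the same comparison.

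Scg5 was low in 2 strains. In C57Bl/6J on RC it was 836 ± 54.4 CPM (SD, n = 20) and in 129S2/SvPas 875 ± 64.4 (n = 18). The other strains had means of 1998 ± 131.3 in AKR/J (n = 19), 1949 ± 284 in A/J (n = 14), 1925 ± 222 in DBA/2J (n = 18) and 1739 ± 84.9 in BALB/cJ (n = 18). No mouse of the first pair of strains reached any mouse of the other 4: the highest were 938 and 1009 CPM, and the lowest elsewhere was 1565. The log2 difference was −1.02 (SE 0.04, adjusted p = 1.59e-69) for C57Bl/6J and −0.86 (adjusted p = 7.07e-54) for 129S2/SvPas. In the changed comparison without the low libraries these were −0.90 and −0.77, and AKR/J (0.70) and A/J (0.63) were called too. The AKR/J mean itself was 1984 CPM there, over all days (n = 27). On HFHS the same gap was present, over all days, with at most 992 CPM in both strains and at least 1519 in the others. Counts per gene do not separate a lower transcript level from strain differences in how reads of this gene align, which was not tested.

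Scg2 and Chga, the most abundant granins, had their low strains elsewhere. Scg2, whose product is the precursor of secretoneurin, averaged 3918 ± 710 CPM in A/J, against 5823 ± 473 in 129S2/SvPas, 6334 ± 561 in BALB/cJ, 7616 ± 445 in C57Bl/6J, 9058 ± 950 in AKR/J and 9836 ± 1938 in DBA/2J. The DBA/2J mean holds day 30, where every RC library was low in GC-rich genes. Over all days and without the low libraries DBA/2J averaged 8483 ± 406 CPM (n = 11), below AKR/J at 9688 ± 1284 (n = 27). The A/J level was lower by a log2 difference of −0.91 (adjusted p = 4.62e-41). On HFHS over all days A/J was again lowest, at 4192 CPM, and AKR/J was highest, at 12268. Chga, the precursor of pancreastatin, averaged 7672 ± 970 CPM in BALB/cJ and 9009 ± 746 in AKR/J. It was 13645 ± 2497 CPM in DBA/2J, 13942 ± 2128 in 129S2/SvPas, 15559 ± 1345 in A/J and 16448 ± 1272 in C57Bl/6J. Chga was called low in BALB/cJ (log2 −0.74, adjusted p = 2.23e-38), and AKR/J at −0.56 missed the fold threshold. The places changed in the other comparison, without the low libraries: AKR/J was called at −0.72 and BALB/cJ, at −0.58, was not. Both strains stayed below the other 4 in their means either way, with BALB/cJ at 8835 ± 686 CPM (n = 16) and AKR/J at 8857 ± 690 (n = 27) over all days and without the low libraries. In those libraries DBA/2J averaged 15438 ± 1028 CPM (n = 11), above 129S2/SvPas at 14365 ± 1143 (n = 28).

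Vgf, a neuroendocrine precursor of several peptides, was highest in AKR/J. Its mean on RC was 75.5 ± 8.88 CPM there, against 47.2 ± 7.6 in 129S2/SvPas, 39.2 ± 22 in DBA/2J, 37.8 ± 9.51 in A/J, 25.4 ± 4.77 in C57Bl/6J and 23.7 ± 10.6 in BALB/cJ. The AKR/J level was higher by a log2 difference of 1.19 (adjusted p = 8.4e-34) and by 1.07 in the changed comparison without the low libraries. C57Bl/6J was lower by −0.70 (adjusted p = 4.1e-12) and by −1.13 without them. The call for BALB/cJ, at −0.92, was lost in that changed comparison, where the difference was −0.35.

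Chgb, Scg3 and the processing enzymes varied less between strains. Chgb averaged 2443 ± 169 CPM in AKR/J and between 1779 and 1912 in the other strains. Scg3, a granin that binds chromogranin A and cholesterol-rich granule membrane, ranged from 1496 in 129S2/SvPas to 2002 in DBA/2J. Pcsk1 ranged from 450 in AKR/J to 725 in BALB/cJ, with log2 differences of −0.52 and 0.48. Pcsk2 ranged from 3247 in DBA/2J to 4861 in BALB/cJ, with −0.40 and 0.42, and Cpe from 3988 in AKR/J to 5109 in C57Bl/6J. None of these 5 genes reached the fold threshold in any strain. For Pcsk1n all 6 strains were called, from −2.09 in BALB/cJ to 1.13 in 129S2/SvPas, and without the low libraries none was called, with means over all days between 1018 CPM in BALB/cJ and 1335 in 129S2/SvPas.

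Averaged over strains, 1 to 5 of the 10 genes were called for diet at each day, and every called difference other than those of Pcsk1n was at most 0.26 on the log2 scale. At day 2, over 5 strains, only Scg3 was called, higher on HFHS by a log2 difference of 0.12 (adjusted p = 0.00413), where 19.4% of all genes were called. At day 10, over 5 strains and with 4.2% of all genes called, only Pcsk1n was, at 0.64 (adjusted p = 0.00141). Leaving out the low libraries took BALB/cJ out of this mean. Over the strains left, Pcsk1n was at −0.07 and Chga was called lower at −0.14 (adjusted p = 0.0327, background 2.85%). At day 30, over 6 strains and with a background of 41.8%, Chga (0.09), Scg2 (0.10), Vgf (0.26) and Pcsk1n (1.27) were called higher and Pcsk1 (−0.15) lower. Once the low libraries were left out, and DBA/2J with them, the background was 16.7%. Only Scg2 (0.15, adjusted p = 0.000956) and Pcsk1 (−0.15, adjusted p = 0.00522) were then called at that day. At day 90, over 5 strains and with a background of 9.87%, Scg2 was higher on HFHS by 0.24 (SE 0.04, adjusted p = 1.05e-07) and Scg3 by 0.13 (SE 0.03, adjusted p = 5.63e-05). In the fit without the low libraries Chga, at −0.10, and Chgb, at 0.11, were also called there (background 10.7%), from the same mice. The median of the 10 genes at day 90 was a log2 difference of 0.03, beside 0.00 over all genes tested. In the same comparison 2 of 14 other prohormone-processing enzymes were higher and 1 lower, 3 and 1 of 18 granule genes, 3 and 4 of 18 prohormones, and 1 and 3 of 13 islet transcription factors.

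**Figure D3:**
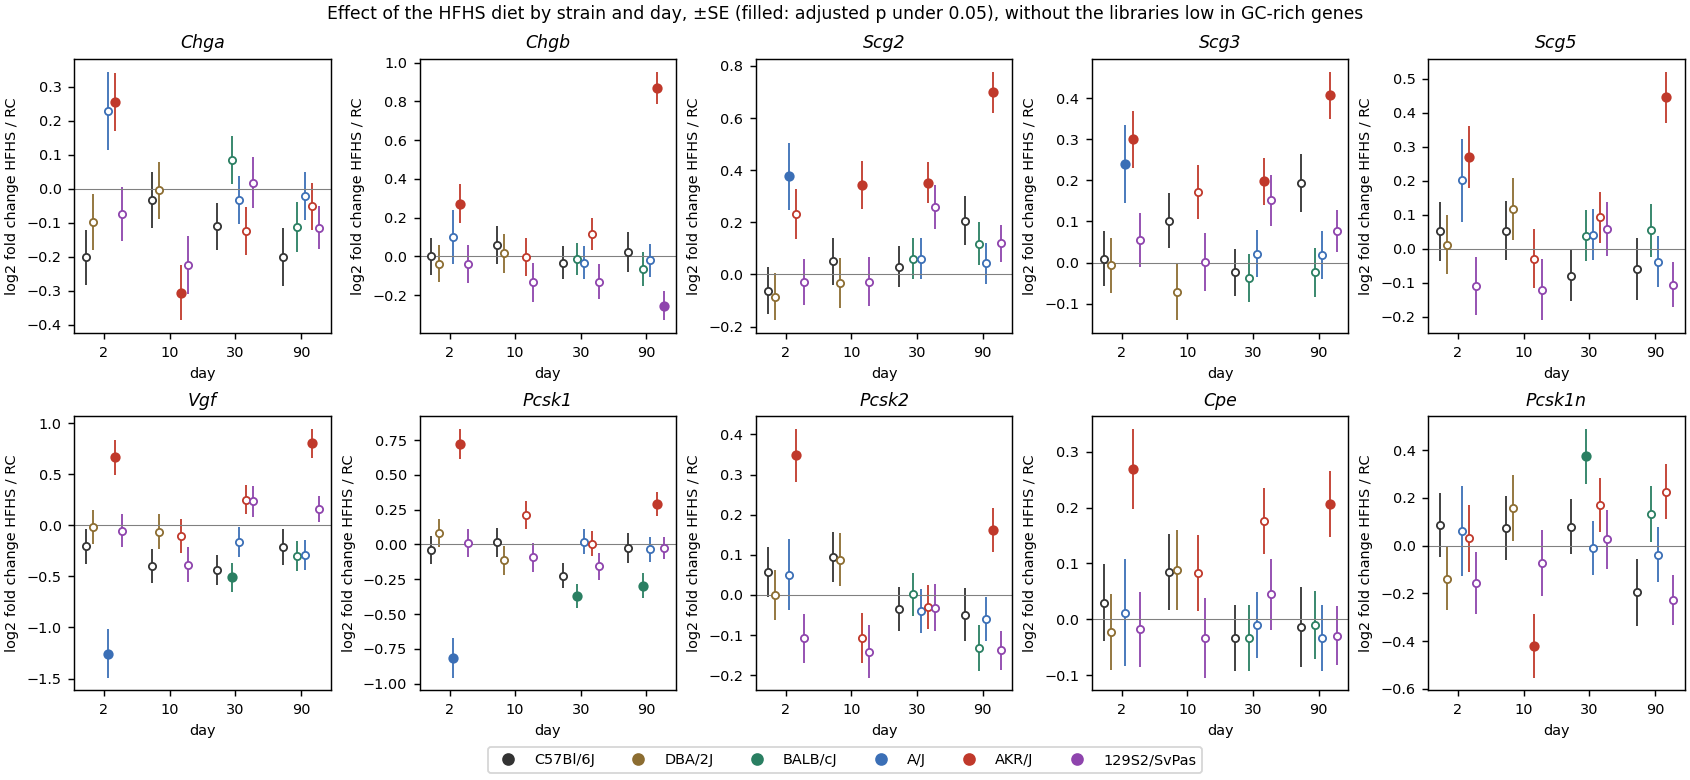
Log2 difference of HFHS from RC (y axes) with its SE for each gene at each day (x axes), 1 point per strain, from the fit without the libraries low in GC-rich genes; filled points have an adjusted p under 0.05. The filled points are mostly AKR/J, with Chgb at 0.87 and Scg2 at 0.70 at day 90, and C57Bl/6J has none at any of the 4 days.

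The diet effects differed between strains. A test of that difference at each day called 21 of 40 gene and day combinations, where 30.3% of tests over all genes were called. There were 6 at day 2 (background 27.9%), 1 at day 10 (12.7%), 6 at day 30 (38.4%) and 8 at day 90 (42.1%). When the low libraries were left out, 16 of 40 were called beside 20.7%: 6 at day 2, none at day 10, 1 at day 30 and 9 at day 90. That fit had no BALB/cJ comparison at day 10 and no DBA/2J comparison at day 30. The mice compared at days 2 and 90 were the same in both fits. Taken strain by strain, 32 of 210 diet effects on members were called, beside 9.75% over all genes, and 19 of the 32 were in AKR/J. It was 30 of the 190 that could be fitted without the low libraries, beside 8.19%.

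The most calls were in AKR/J at day 90, where 8 of the 10 genes rose on HFHS in 8 mice against 8. Of all genes, 29.9% were called in this comparison and 15.7% were called higher, and the median log2 difference was 0.35 over the 10 genes and −0.02 over all genes. With all 338 libraries 4 of the 10 were called in place of 8, beside 12.4% of all genes: Chgb, Scg2, Scg3 and Scg5 kept the call and Vgf, Pcsk1, Pcsk2 and Cpe lost it. Values below are CPM after the TMM scaling used in the fit, given as lowest, median and highest mouse. Chgb was 3103, 4357 and 6851 on HFHS and 2422, 2579 and 2813 on RC, a 1.82-fold rise (log2 0.87, SE 0.09, adjusted p = 1.67e-16). Scg2 was 12610, 17919 and 22434 on HFHS and 10129, 10939 and 12151 on RC, a 1.62-fold rise (log2 0.70, adjusted p = 5.18e-14). Scg3 was 1963, 2408 and 2558 on HFHS and 1648, 1722 and 1854 on RC, a 1.32-fold rise (log2 0.40, adjusted p = 7.66e-10). For these 3 granins every HFHS mouse was above every RC mouse. The share of all genes without overlap between groups was not counted, here or in any other comparison.

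Vgf was more variable between mice: 110.95, 185 and 271 on HFHS against 98.4, 110.4 and 127.1 on RC, a 1.74-fold rise (log2 0.80, SE 0.17, adjusted p = 4.57e-05), with 7 of 8 HFHS mice above all RC mice. Scg5, the chaperone of the Pcsk2 convertase, was 2103, 2545 and 3293 against 1767, 1904 and 2132, a 1.36-fold rise (log2 0.44, adjusted p = 2.33e-07), again with 7 of 8 above. Chga was not called: it was 7256, 8141 and 8927 on HFHS against 7681, 8429 and 9074 on RC (log2 −0.05, adjusted p = 0.668), with the groups overlapping. Pcsk1n was 1009, 1084 and 1552 against 863, 959 and 1081 (log2 0.23, adjusted p = 0.561).

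The convertases and Cpe rose by 1.12- to 1.22-fold. Pcsk1 was 447, 587 and 693 on HFHS against 425, 481 and 560 on RC, a 1.22-fold rise (log2 0.29, adjusted p = 0.00503), with 5 of 8 HFHS mice above all RC mice. Pcsk2 was 4155, 4821 and 5742 against 4191, 4361 and 4698, a 1.12-fold rise (log2 0.16, adjusted p = 0.0149), with 5 mice above and 1 below the RC range. Cpe was 4318, 4836 and 5577 against 4012, 4264 and 4732, a 1.15-fold rise (log2 0.20, adjusted p = 0.00291), with 7 of 8 above. The sizes depend on the scaling. In AKR/J at day 90 the TMM factors were 0.835 to 0.958 on HFHS and 0.961 to 1.06 on RC, and insulin transcripts took 27.8 to 33.4% of reads on HFHS and 22.5 to 26.2% on RC. In CPM without that scaling, Pcsk1 averaged 529 on HFHS and 486 on RC, Pcsk2 4434 and 4453, Cpe 4494 and 4369, and Chga 7315 and 8498.

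**Figure D4:**
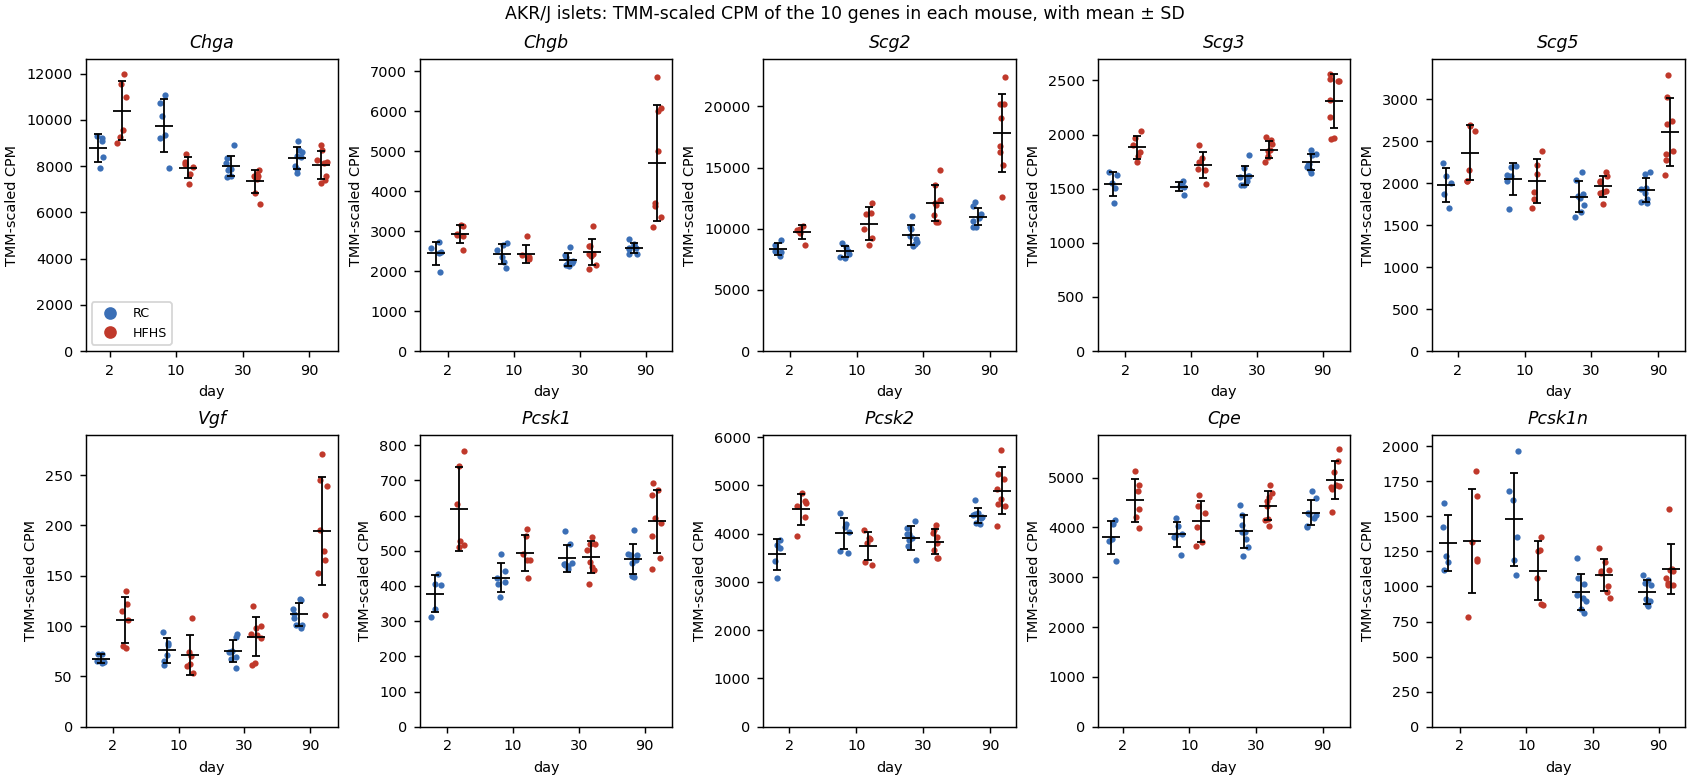
Level of each of the 10 genes in AKR/J islets (TMM-scaled CPM, y axes from 0) at each day (x axes), with 1 point per mouse and bars for the mean and SD, RC and HFHS in separate colours. At day 90 the 8 mice on each diet do not overlap for Chgb, Scg2 and Scg3, and they do for Chga.

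Other genes of the granule in the same comparison did not move as a block. Among 14 other prohormone-processing enzymes 4 were higher and 3 lower, with Pam, the amidating enzyme, at a log2 difference of 0.42, Qpctl at 0.54 and Pcsk6 at −0.76. Among 18 genes of granule formation and membrane 7 were higher and 3 lower, with Arfip2 at 0.55, Hid1 at 0.53, Ica1 at 0.46 and Sytl4 at −0.40. Among 18 prohormones 6 were higher and 10 lower, including Nucb2 at 1.36, Iapp, the amylin gene, at 0.61, Gcg, the glucagon gene, at −1.05 and Vip at −2.48. Of 13 islet transcription factors 1 was higher, Rfx6 at 0.29, and 4 were lower, including Creb1 at −0.33 and Isl1 at −0.19.

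Markers of other islet and pancreatic cells moved in the same mice. Of 6 alpha-cell markers none was higher and 5 were lower, and their summed level was 5722 to 19845 CPM on HFHS (median 8178) and 17748 to 25098 on RC (median 20638). Delta- and PP-cell markers summed to 2349 to 7393 CPM against 5432 to 8134, with 2 of 3 lower. Acinar markers summed to 523 to 6748 against 3772 to 25390, with 7 of 11 lower. Beta-cell markers summed to 303681 to 368364 CPM on HFHS and 248021 to 286082 on RC, with 3 of 9 higher and 2 lower, Ins1 at 0.49, Ins2 at 0.41 and Slc2a2, the glucose transporter, at −0.59. Of 4 duct markers 1 was higher and 1 lower, of 5 macrophage markers 1 was higher, and of 6 neuron and glia markers 3 were lower. Of 6 stellate markers 1 was lower, and no marker of 4 for endothelium or 4 for lymphocytes was called. The part of these shifts in the granin and enzyme differences was not tested.

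AKR/J had called members at the other 3 days as well. At day 2, in 6 HFHS against 5 RC mice, 6 of the 10 genes rose, where 25.2% of all genes were called and 13.2% were called higher. Pcsk1 rose most: its lowest, median and highest HFHS values were 511, 581 and 782 TMM-scaled CPM, and the RC mice had 435, 407, 311, 404 and 334, a 1.64-fold rise (log2 0.71, SE 0.10, adjusted p = 9.59e-09). Vgf was 78.5, 110.5 and 135.3 on HFHS and 65.3, 72.5, 71.8, 63.7 and 64.5 on RC (log2 0.65, adjusted p = 0.0115). Neither gene overlapped between diets. Pcsk2 was 3948, 4606 and 4842 on HFHS and 3694, 3876, 3082, 3760 and 3435 on RC (log2 0.34, adjusted p = 1.97e-05). Scg3 was 1749, 1872 and 2031 on HFHS and 1506, 1650, 1369, 1628 and 1553 on RC (log2 0.29, adjusted p = 0.000662). These genes did not overlap between diets either. Cpe (log2 0.26, adjusted p = 0.00314) and Scg5 (log2 0.26, adjusted p = 0.0243) were called as well, but Scg5 lost its call without RC mouse 5RC1 or 5RC3 (adjusted p = 0.0608 and 0.121). In the fit without the low libraries Chga (0.26, adjusted p = 0.0166) and Chgb (0.27, adjusted p = 0.0354) were called too. No AKR/J library was low, so the same mice were compared and only the other libraries of the fit changed. At this day 10 of 18 genes of granule formation and membrane were higher and none lower. Of the other cell types, 3 of 4 endothelial, 3 of 4 lymphocyte and 2 of 6 stellate markers were lower and 1 of 6 alpha-cell markers was higher. Stellate markers summed to 308 to 1352 CPM on HFHS and 1016 to 1721 on RC, and their part in these differences was not tested.

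Between these times the AKR/J differences were fewer. At day 10, in 6 mice on each diet and with 13.6% of all genes called, Scg2 rose by 0.35 on the log2 scale (adjusted p = 0.00585), Scg3 rose by 0.18 (adjusted p = 0.0464) and Chga fell by 0.30 (adjusted p = 0.0248). In the fit without the low libraries, from the same AKR/J mice, Scg3 was at 0.17 with an adjusted p of 0.0614, and Pcsk1n was called lower at −0.42 (adjusted p = 0.0236). In the same mice 5 of 6 alpha-cell markers, 3 of 6 stellate markers, 2 of 6 neuron and glia markers and 8 of 18 prohormones were lower. Alpha-cell markers summed to 20673 to 27538 CPM on HFHS and 29458 to 44992 on RC, and their part in the Chga, Scg2 and Scg3 differences was not tested. At day 30, in 8 mice on each diet and with 2.95% called, Scg2 was 10528, 12054 and 14800 TMM-scaled CPM on HFHS and 8598, 9301 and 11006 on RC, a rise of 0.35 (adjusted p = 0.00305), and the groups overlapped. Scg3 rose by 0.20 (adjusted p = 0.0296). Scg3 was thus called in AKR/J at all 4 days, and Scg2 at days 10, 30 and 90.

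A/J at day 2 gave the opposite direction for Pcsk1 and Vgf, in 3 mice against 3 and with 26.1% of all genes called. Pcsk1 was 373, 296 and 337 TMM-scaled CPM on HFHS and 554, 605 and 601 on RC (log2 −0.81, SE 0.14, adjusted p = 8.1e-07). Vgf was 16.4, 20.8 and 24.2 on HFHS and 46.9, 51.0 and 47.9 on RC (log2 −1.25, SE 0.28, adjusted p = 0.000214). Scg2 was 5025, 4288 and 4888 on HFHS and 3623, 3531 and 3733 on RC (log2 0.38, adjusted p = 0.0162). None of these 3 overlapped between diets, and how many of all genes separate in 3 mice against 3 was not counted. Scg3 was called higher (log2 0.25, adjusted p = 0.0342), but its call was lost without mouse 4HF4, 4RC2, 4RC3 or 4RC4 (adjusted p from 0.0693 to 0.439). That of Scg2 was lost without 4HF4, 4HF6 or 4RC3 (adjusted p from 0.0507 to 0.0829). In the same mice the insulin genes took 15.8, 20.7 and 21.2% of reads on HFHS and 27.1, 25.3 and 25.8% on RC, 6 of 9 beta-cell markers were lower, and stellate-cell markers summed to 420 to 448 CPM on HFHS against 1158 to 1899 on RC. The part of these in the Pcsk1 and Vgf differences was not tested. With all 338 libraries, which adds A/J mice beyond the GC bound, the Pcsk1 difference was 0.16.

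The other strains gave 1 or 2 calls in a comparison. In BALB/cJ, Pcsk1 fell on HFHS at day 30, from 528, 754 and 834 TMM-scaled CPM on RC to 523, 558 and 599 (log2 −0.36, adjusted p = 0.00201, background 13.7%), and at day 90, from 610, 627 and 662 to 391.8, 466.2 and 641 (log2 −0.30, adjusted p = 0.0114, background 16.5%). Vgf fell there at day 30, from 26.8, 32.6 and 42.9 to 21.0, 24.0 and 27.1 (log2 −0.50, adjusted p = 0.0369), and Pcsk1n was called higher at day 30 only in the fit without the low libraries, from the same mice (0.37, adjusted p = 0.0157). In each of these the groups overlapped, with 8 mice on each diet at day 30 and 7 on HFHS against 8 on RC at day 90. In 129S2/SvPas, Scg2 rose at day 30, from 5206, 5858 and 6994 to 6358, 7493 and 8078 (log2 0.28, adjusted p = 0.0298, background 3.98%), and Chgb fell at day 90, from 1458, 1735 and 2593 to 1410, 1479 and 1743 (log2 −0.25, adjusted p = 0.033, background 7.25%). Here too the groups overlapped (7 HFHS against 8 RC mice at day 30, 9 against 11 at day 90), and Scg2 at day 30 had an adjusted p of 0.074 without the low libraries.

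Calls in 2 further comparisons stood beside low libraries in the RC group. In DBA/2J at day 30, where 45.5% of all genes were called and every RC library was low in the GC-rich genes, Pcsk1n (log2 6.88), Vgf (2.14) and Chga (0.59) were called higher on HFHS, and Pcsk1n was 2.80 to 32.4 TMM-scaled CPM on RC. In BALB/cJ at day 10, where 12.9% were called and the RC libraries were again all low, Pcsk1n was 139.4, 160, 109.6 and 40.1 on RC and 919 to 1500 on HFHS (log2 3.48, adjusted p = 1.82e-13). Diet and library quality cannot be told apart in either. C57Bl/6J had no called member at days 2, 10, 30 or 90, with backgrounds of 0.607, 0.0607, 3.62 and 0.407%. A/J had none at days 30 and 90, with backgrounds of 0.152 and 0.17%. DBA/2J had none at days 2 and 10 (0.164 and 0.0182%), nor had 129S2/SvPas (1.26 and 0.893%). Without a call, all 6 HFHS mice were below all RC mice for Chga in C57Bl/6J at day 2 and for Vgf in 129S2/SvPas at day 10. Their adjusted p by edgeR's quasi-likelihood test was 0.445 and 0.431. Both cases were picked from the 210 diet tests of members, so they are not read as diet effects.

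With time on HFHS 4 granins rose over strains. Day 90 was compared with day 2 within each diet over 5 strains, without BALB/cJ on HFHS and without DBA/2J on RC. On HFHS, with 40.6% of all genes called, Scg2 rose by 0.49 on the log2 scale (adjusted p = 7.36e-25), Vgf by 0.62 (adjusted p = 4e-10), Scg3 by 0.16 (adjusted p = 1.73e-06) and Chgb by 0.14 (adjusted p = 0.00675). Chga fell by 0.10 (adjusted p = 0.0471), and leaving out A/J mouse 4HF5 or 4HF6, or the low libraries, removed that call (adjusted p = 0.130, 0.0965 and 0.109). By strain, Chga fell in AKR/J (−0.37, adjusted p = 0.000312) and A/J (−0.36, adjusted p = 0.00556), while DBA/2J was at 0.20 and was called higher without the low libraries (0.33, adjusted p = 0.000299). Neither convertase was called over strains. On RC, with 34.8% called, Scg2 rose by 0.20 (adjusted p = 1.98e-05) and Vgf by 0.40 (adjusted p = 0.000169), Pcsk1n was at 0.72 and Pcsk1 fell by 0.15. Leaving out the low libraries took BALB/cJ out of the RC mean, and only Scg2 was then called on RC (0.25, adjusted p = 4.24e-06, background 31.2%).

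The rise of Scg2 on HFHS was widest in 2 strains. In DBA/2J it went from 7224, 7908 and 8028 TMM-scaled CPM at day 2 to 12007, 15074 and 18662 at day 90 (log2 0.92), and in AKR/J from 8659, 9936 and 10229 to 12610, 17919 and 22434 (log2 0.87). In C57Bl/6J it went from 6482, 6689 and 7285 to 8640, 9257 and 10391 (log2 0.48). In each of these 3 strains the days did not overlap, with 6 mice at day 2 and 7, 8 and 6 at day 90. In 129S2/SvPas the difference was 0.40, with overlap, and A/J had no call. A/J had 3 mice at day 2, the HFHS mice of its day 2 diet comparison, and 8 at day 90. Chgb rose with time in DBA/2J (0.72) and AKR/J (0.69) and fell in A/J (−0.37) and 129S2/SvPas (−0.29). Vgf rose in DBA/2J (1.22), AKR/J (0.87) and 129S2/SvPas (0.46). In A/J Vgf was called higher (0.59, adjusted p = 0.0165) only in the fit without the low libraries, from the same A/J mice. Scg3 rose in DBA/2J (0.43), AKR/J (0.30) and C57Bl/6J (0.20) and fell in A/J (−0.23). Scg5 rose in DBA/2J (0.50), as did Cpe (0.32). Pcsk1 rose in A/J (0.35) and fell in 129S2/SvPas (−0.35), and Pcsk2 rose in DBA/2J (0.16) and fell in A/J (−0.26) and 129S2/SvPas (−0.20). The shares of all genes called were 42.7% in DBA/2J, 33.6% in AKR/J, 10.3% in C57Bl/6J, 25.8% in 129S2/SvPas and 30.3% in A/J.

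On RC over the same time AKR/J again had the most calls, with 6 of the 10 genes higher at day 90: Vgf by a log2 difference of 0.72, Scg2 by 0.40, Pcsk1 by 0.34, Pcsk2 by 0.29, Scg3 by 0.18 and Cpe by 0.18, where 34.2% of all genes were called. Pcsk1n, at −0.44, was called lower there only in the fit without the low libraries, from the same AKR/J mice (adjusted p = 0.00491). In 129S2/SvPas (20.5% called) Scg2 rose by 0.24 while Pcsk1 fell by 0.31 and Pcsk2 fell by 0.17, and in A/J (10.8%) Pcsk1 fell by 0.42. That A/J change was against 3 mice at day 2, the RC mice of its day 2 diet comparison. C57Bl/6J had no call on RC (2.31%). BALB/cJ (29.9%) had Pcsk1n at 3.90, Vgf at 1.41, Chga at 0.42 and Pcsk1 at −0.25, and its day 2 libraries on RC were all low in GC-rich genes, so time and library quality cannot be told apart there.

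In DBA/2J at day 90 on HFHS, 2 of 7 mice carried the highest values of several of the genes. They had Chgb at 4913 and 3744 TMM-scaled CPM, where the other 5 were at 2171 to 2772, and Pcsk1 at 839 and 926, where the others were at 484 to 627. Their Vgf was 246 and 241, against 72.1 to 132.2 in 4 others and 15.7 in a library low in GC-rich genes. No DBA/2J mice on RC were in the fits at day 90, so no diet comparison was possible for them. Over the same time on HFHS 5 of 6 alpha-cell markers and all 3 delta- and PP-cell markers fell over strains, and 6 of 11 acinar and 4 of 9 beta-cell markers rose, whose part in these changes was not tested.

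Within groups, and over all strains together, mice with more Pcsk2 mRNA also had more of the mRNA of its chaperone. After subtracting each group's mean log2 level, Pcsk2 and Scg5 had a Pearson's r of 0.666 and a Spearman's rho of 0.656 over 298 mice. The permutation p adjusted over 4 relations was 2e-05 for r and 1.33e-05 for rho, from 100000 permutations, which can give no smaller p before adjustment. Without the 2 mice farthest from the median of Pcsk2, r was 0.661. In A/J alone, with 41 mice, Pcsk2 and Scg5 had r = 0.234 and rho = 0.213 (adjusted permutation p = 0.29 for r). Over the 298 mice Chga and Chgb had r = 0.498 and rho = 0.533, and r = 0.419 without the 2 farthest mice. The 2 convertases, Pcsk1 and Pcsk2, were less closely tied, at r = 0.226 and rho = 0.190 (adjusted permutation p = 0.00319 for r). Pcsk1 and its inhibitor Pcsk1n had r = −0.154 (adjusted permutation p = 0.0848) and rho = −0.338 (adjusted permutation p = 1.33e-05), with r = −0.420 in the 276 mice left without the low libraries. In the 298 mice a GC correction in the scaling moved r from −0.154 to 0.342, so the sign of this relation depends on how GC content is handled. Over all 338 libraries Pcsk2 and Scg5 had r = −0.043, a set that includes the libraries beyond the GC bound. The levels in each library share its depth and base composition, and whether these carry the relations was not tested.

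**Figure D5:**
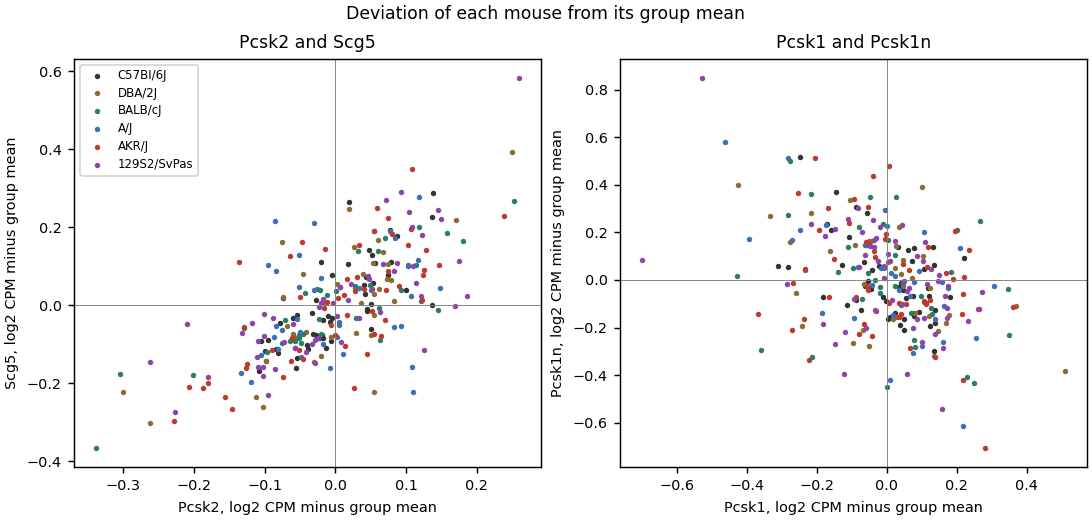
Deviation of each mouse from its group's mean log2 CPM for Pcsk2 and Scg5 and for Pcsk1 and Pcsk1n (both axes log2), coloured by strain, for the 276 mice without the libraries low in GC-rich genes. Pcsk2 and Scg5 rise together across the whole range (r = 0.696), and Pcsk1 and Pcsk1n slope the other way (r = −0.420).

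Over the 45 group means, which describe strain, diet and day together, the patterns of the 10 genes fell apart rather than together. The highest correlations were 0.658 for Scg3 with Scg5, 0.614 for Chgb with Vgf and 0.604 for Chgb with Scg2 (0.646, 0.744 and 0.648 without the low libraries), and the lowest were −0.637 for Scg5 with Cpe, −0.526 for Chga with Pcsk2 and −0.499 for Chga with Chgb. The gene outside the set with the pattern most like that of Scg5 was H2-Ea-ps (r = 0.972), followed by Capns1 (0.956) and Mettl21d (0.954). For Chga it was Rps2 (0.941), for Cpe Atp6v0e2 (0.927), for Vgf Ppapdc3 (0.901), for Pcsk1 Prepl (0.884) and for Scg2 Rasl10b (0.877). Chgb was most like Sec11c (0.847), a signal peptidase subunit gene, and Pcsk2 most like Ctnna2 (0.776). Pcsk1n was most like Prr7 at 0.983, which was 0.486 without the low libraries. These values describe group means that share strains and libraries, and no test was made of them.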

How the data were processed

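The authors deposited read counts per gene for all 338 libraries, prepared with a TruSeq RNA v2 kit per the labels' protocols, and a table of normalized log2 expression values. The submitters' processing notes name TopHat 1.3.3, SAMtools 0.1.16, HTSeq 0.5.3p3, edgeR and the mm9 build, with no roles, so how reads shared by genes were counted is not given in the sources used here. The deposited counts are whole numbers and served all main results; the authors' deposited log2 values served 1 alternative.

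Counts were fitted with edgeR 4.0.16 (R 4.3.3) by the quasi-likelihood method with TMM scaling, a filter on low counts, a prior count of 2 and 1 mean per group, and p-values were adjusted over 16462 genes. A call is an adjusted p under 0.05, with a fold of at least 1.5 for strains. GC content, known for 98.3% of genes, gave each library's slope. Every pair of libraries within a group differed by more than sampling noise (1069 pairs). On simulated counts with 200 changed genes, 156 were recovered for AKR/J at day 90 (28 of 67 at a 1.2-fold change, 62 of 67 at 1.5 and 66 of 66 at 2). The 10 genes and all gene lists were chosen with earlier results of these data known. The genes named are the 10 members, for each list up to 4 genes with the smallest p in the comparison, and for each member those whose group means (log2, over 45 groups) correlate best with it. Transcript lengths and GC content, both of a gene's longest transcript, were taken from GENCODE M21. Alternatives used DESeq2 1.42.0 and limma 3.58.1, and correlations used SciPy 1.17.1.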

Additional observations from a re-analysis of the deposited data

Results flagged for a closer look

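Diet effects that differed between strains, by a test of the difference within each day, were found for 21 of the 40 gene and day combinations (edgeR's quasi-likelihood test, adjusted over all genes). Over all genes 30.3% of such tests were called: 27.9% at day 2, 12.7% at day 10, 38.4% at day 30 and 42.1% at day 90. At day 2 these were Pcsk1 (adjusted p = 3.883e-12), which rose on HFHS in AKR/J and fell in A/J, Vgf (0.00013), with the same 2 directions, Pcsk2 (0.0005164), Chga (0.02015), Scg3 (0.02377) and Scg2 (0.02834). At day 10 it was Pcsk1n alone (adjusted p = 1.584e-10), and the BALB/cJ RC libraries behind it were all low in GC-rich genes. At day 30 these were Pcsk1n (adjusted p = 3.562e-40), Vgf (2.089e-20), Chga (1.88e-07), Scg2 (0.0004415), Scg3 (0.005449) and Pcsk1 (0.04463). Only 1 gene kept such a call at day 30 without the low libraries (background 7.85%), a fit with no DBA/2J comparison at that day. At day 90 these were Chgb (adjusted p = 3.734e-14), Scg2 (9.74e-07), Scg5 (1.96e-05), Scg3 (2.352e-05), Vgf (0.000181), Pcsk1 (0.001622), Pcsk2 (0.003331) and Cpe (0.04084), where AKR/J rose in all 8. The part of cell-type markers and library quality in these differences was not tested.

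Single mice stood far from their group in 28 of 410 gene and group combinations with 4 to 10 libraries, where chance alone flags about 1 in 20. The 28 came from 19 mice, and 10 of them were in libraries low in GC-rich genes. That count is near the chance rate, so the mice are listed as a description only. Genes outside the 10 were not screened in this way. All values are CPM. In such low libraries, 1 mouse of DBA/2J on HFHS at day 90 had Chga at 9527, Cpe at 4966 and Pcsk1n at 5.649. A mouse of BALB/cJ on RC at day 2 had Scg2 at 8041, Scg3 at 1787 and Pcsk2 at 4468, and 1 of BALB/cJ on RC at day 10 had Cpe at 4397. A mouse of 129S2/SvPas on RC at day 30 had Chgb at 736.3, Pcsk2 at 3073 and Pcsk1n at 559.8.

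Among the granins of other libraries, high mice were seen for Vgf in C57Bl/6J on RC at day 10 (39.88, where the others were 18.48 to 25.32) and in AKR/J on HFHS at day 10 (101.1 against 56.78 to 71.24), and a low one in 129S2/SvPas on HFHS at day 30 (42.56 against 52.96 to 60.66). Chgb was high in 1 mouse of BALB/cJ on RC at day 30 (2555 against 1575 to 1833) and in 1 of AKR/J on RC at day 30 (2682 against 2250 to 2448). Scg2 was low in 1 mouse of DBA/2J on HFHS at day 2 (7105 against 7892 to 8292), whose Cpe was low as well (3555 against 3792 to 3924). Scg3 was high in 1 mouse of AKR/J on RC at day 90 (1907 against 1734 to 1806). A mouse of A/J on HFHS at day 90 was set apart by its Scg3 (1518) and Pcsk1 (283.9).

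Scg5 was high in 1 mouse of C57Bl/6J on RC at day 90 (954.0 against 802.8 to 839.0), of DBA/2J on HFHS at day 2 (1976 against 1738 to 1824) and of 129S2/SvPas on HFHS at day 90 (968.6 against 781.4 to 853.7), and low in 1 of AKR/J on RC at day 10 (1844 against 2033 to 2140). A mouse of 129S2/SvPas on RC at day 10 was set apart in Scg5 (789.3) and Pcsk1n (826.1). Cpe was high in 1 mouse of 129S2/SvPas on HFHS at day 2 (5767 against 4649 to 4982), and Pcsk1n in 1 of AKR/J on HFHS at day 90 (1296 against 929.9 to 1054). Even the high Scg5 values in C57Bl/6J and 129S2/SvPas were below every mouse of the other 4 strains.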

How the results depend on the processing

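Counts over the 10 genes stayed within 1.5 times of the reported value under each setting tried, except as follows. They were 21 diet effects that differed between strains, 32 diet effects by strain and day, 13 strain differences, and 5 genes over time on HFHS and 4 on RC. With all 338 libraries the diet called 4 genes at day 2 in place of 1, 0 at day 10 in place of 1, 1 at day 30 in place of 5 and 4 at day 90 in place of 2, AKR/J at day 90 called 4 in place of 8, and time on RC called 1; with a GC correction added these diet counts were 0, 0, 3 and 5. The GC correction on the libraries of the fits gave 2 at day 10 and 3 at day 30. Without the libraries low in GC-rich genes the diet called 2 genes at day 30 and 4 at day 90, strain 8 and time on RC 1. That setting drops BALB/cJ from the diet mean at day 10 and from time on RC, drops DBA/2J at day 30, and changes the strain comparison. DESeq2, which was run within each family of comparisons because a run over all groups was not made, called 2 at day 2 and 2 at day 10. Leaving out 1 mouse in turn (38 mice of small groups) gave 1 to 1 at days 2 and 10, 2 to 2 at day 90, 4 to 6 over time on HFHS, 4 to 4 on RC, 18 to 23 effects that differed between strains, 30 to 33 diet effects and 12 to 14 strain differences.

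Some single differences turned direction. With all libraries Pcsk1 at day 2 was 0.16 in A/J and 0.19 over strains, Pcsk1n was 1.28 at day 90, −0.64 over time on RC and 1.43 on HFHS, and Chga and Scg3 over time on HFHS were 0.28 and −0.029. With the GC correction on all libraries Chga and Vgf at day 30 were −0.053 and −0.069, Pcsk1n was 1.08 at day 90, −0.45 over time on RC and 1.16 on HFHS, and Pcsk2 over time on HFHS was 0.17. The GC correction on the libraries of the fits gave −0.049 for Chga and −0.073 for Vgf at day 30. Without the low libraries, with the strains and comparisons changed as above, Chga and Vgf at day 30 were −0.033 and −0.12, and Pcsk1n was −0.066 at day 10, −0.067 over time on RC, −0.13 in C57Bl/6J and −0.040 in AKR/J. The correlation of Pcsk1 with Pcsk1n was 0.456 with all libraries and the GC correction and 0.342 with the correction alone, that of Pcsk2 with Scg5 −0.043 and that of Pcsk1 with Pcsk2 −0.405 with all libraries. The cause was not tested.

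Mice with the same number on both diets were taken as a replicate block in limma, over 4 strains. Of 84 such pairs 35 had deviations that correlated above 0.1 (median 0.017, range −0.67 to 0.60). Mice with unlike numbers were not compared, so whether the numbers pair the mice cannot be told. The block called 3 genes at day 10 and 3 at day 30, with Vgf at −0.034, and the same mice without it 2 and 2, with Vgf at −0.033. The number of mice limits small differences: on simulated counts 28 of 67 changes of 1.2-fold were recovered in AKR/J at day 90.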
